A study of Mus musculus with 24 samples.

Results

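The 7 genes Sema3c, Fendrr, Foxf1, Tcf21, Tbx2, Tbx4 and Wnt2 were grouped here as genes of the lung mesenchyme, the connective tissue and smooth muscle layers under the airway and alveolar epithelium. Whether the same cells express them in these lungs was not tested. They are 7 of the 18193 genes with a probe set on the arrays. Each was taken by its symbol and followed by the brightest of its probe sets over the 24 arrays, with the other probe sets as a check. Sema3c and Fendrr were selected on their lower values under particulate matter in wild-type lung. In that comparison, values of the 7 genes are therefore a description without a test, as are the values of Sema3c and Fendrr against the same wild-type arrays. The comparisons of particulate matter with saline in transgenic lung, of the other 5 genes between genotypes, and of all hearts did not enter the choice.

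RNA of whole lung and of the left ventricle was hybridised to Affymetrix arrays, 12 arrays per tissue in 4 groups of 3. CD-1 mice aged 20 weeks and described as male received either phosphate-buffered saline (PBS) or particulate matter (PM) at 20 mg/kg, with particles of 1.9 µm, and tissue was taken after 36 h. The mice were wild type or dnCREB, which express a dominant negative CREB1, a transcription factor, from the alpha myosin heavy chain promoter. That promoter aims the transgene at heart muscle cells, not at lung mesenchyme. The series speaks of 3 animals per group and does not say whether a lung and a heart came from the same mouse. All values below are log2 expression values as deposited, so a difference of 1 is a doubling.

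Foxf1 is a forkhead transcription factor that Hedgehog signals from the epithelium switch on in the lung mesenchyme, and it is needed for lung vessels. Fendrr is a long non-coding RNA transcribed next to Foxf1 in the opposite direction and is required for lung and heart development. Sema3c is a secreted class 3 semaphorin, a guidance ligand for neuropilin and plexin receptors that acts on growing vessels and airways. Tbx2 and Tbx4 are T-box factors of the early lung mesenchyme, Wnt2 is a mesenchymal Wnt ligand that instructs the lung epithelium, and Tcf21 is a basic helix-loop-helix factor of fibroblasts in lung and heart.

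The tissue labels matched their markers. Sftpc, the surfactant protein C of alveolar type II cells, lay between 15.09 and 15.44 in lung and between 2.33 and 2.49 in heart, and Myh6, the heart muscle myosin, between 17.29 and 17.70 in heart. Myh6, whose promoter drives the transgene, also read 10.69 to 13.66 in lung. Several lung arrays stood apart in ways that the groups do not explain. Wild-type PBS replicate 1 and wild-type PM replicate 2 had the lowest median correlations with the other lung arrays, 0.976 and 0.973, against 0.986 to 0.989 in the other 10. Eif2s3y, a Y-chromosome gene, was high in all 3 wild-type PBS lungs and in wild-type PM replicate 2, whereas Xist was high in the other wild-type PM lungs, in dnCREB PBS replicate 2 and in all 3 dnCREB PM lungs. In dnCREB PBS replicates 1 and 3 both were low, so 1 sex did not hold across the arrays described as male. Uty, another Y-chromosome gene, read 3.39 in wild-type PM replicate 2 against 7.01 to 8.27 in the wild-type PBS lungs. Skeletal muscle genes, of which 8 of 11 passed the filter on low values and Myh4, Myh2 and Pvalb did not, averaged 3.54 to 3.61 in wild-type PBS lung. Their mean was 10.92, 10.59 and 5.34 in the 3 wild-type PM lungs, 11.20, 3.71 and 10.48 in dnCREB PBS lung and 3.37, 3.16 and 11.15 in dnCREB PM lung.

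Sema3c lay lower in every wild-type PM lung than in every wild-type PBS lung. It stood at 13.56, 13.61 and 13.98 in the PBS lungs and at 11.01, 9.61 and 10.90 in the PM lungs. Both groups lay far apart, and wild-type PM replicate 2 was the lowest of the 12 lungs. The mean was 13.71 ± 0.23 under PBS and 10.51 ± 0.78 under PM (SD, n = 3), a difference of -3.21 ± 0.45 (SE) or 9.24-fold, the fifth lowest of 11600 differences. Without any 1 of these 6 arrays the difference was -3.46 to -2.76, and without both least correlated arrays it was -2.84. With the skeletal muscle level as a covariate it was -2.73, and with a sex chromosome covariate (Xist minus Eif2s3y) -3.89. In muscle level every wild-type PM lung (5.34 to 10.92) lay above every wild-type PBS lung (3.54 to 3.61). That covariate is therefore not separate from PM in wild type. Eif2s3y was high in every wild-type PBS lung but, under PM, only in replicate 2. Among wild-type lungs only that array, the least correlated one, separates the sex chromosome covariate from PM. The dnCREB PBS replicates 1 and 3, low in both genes, fall between the other lungs on that covariate. In bulk tissue, fewer cells that make a transcript and less transcript per cell cannot be told apart.

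In dnCREB lung, Sema3c stood at 13.18, 12.98 and 12.72 under PBS and at 12.91, 11.74 and 11.04 under PM. The PM lungs spread over nearly 2 log2 units, and their highest array lay among the PBS arrays. The difference of -1.06 ± 0.45 did not pass the test (limma adjusted p = 0.4858, unadjusted p = 0.0391), with a 95% interval of -2.06 to -0.06. It was -1.57 without dnCREB PM replicate 1 and -0.64 without dnCREB PM replicate 3, and passed in neither fit (limma adjusted p = 0.202 and 0.7703). In that comparison limma called 1 gene of 11600, the metallocarboxypeptidase-like Cpxm2 (0.00862%), and 1127 genes were under 0.05 before adjustment (9.72%). None of the 7 mesenchyme genes was called there. The difference between the changes in the 2 genotypes was 2.14 ± 0.64 for Sema3c, given without a test because the wild-type change within it chose the gene.

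**Figure D1:**
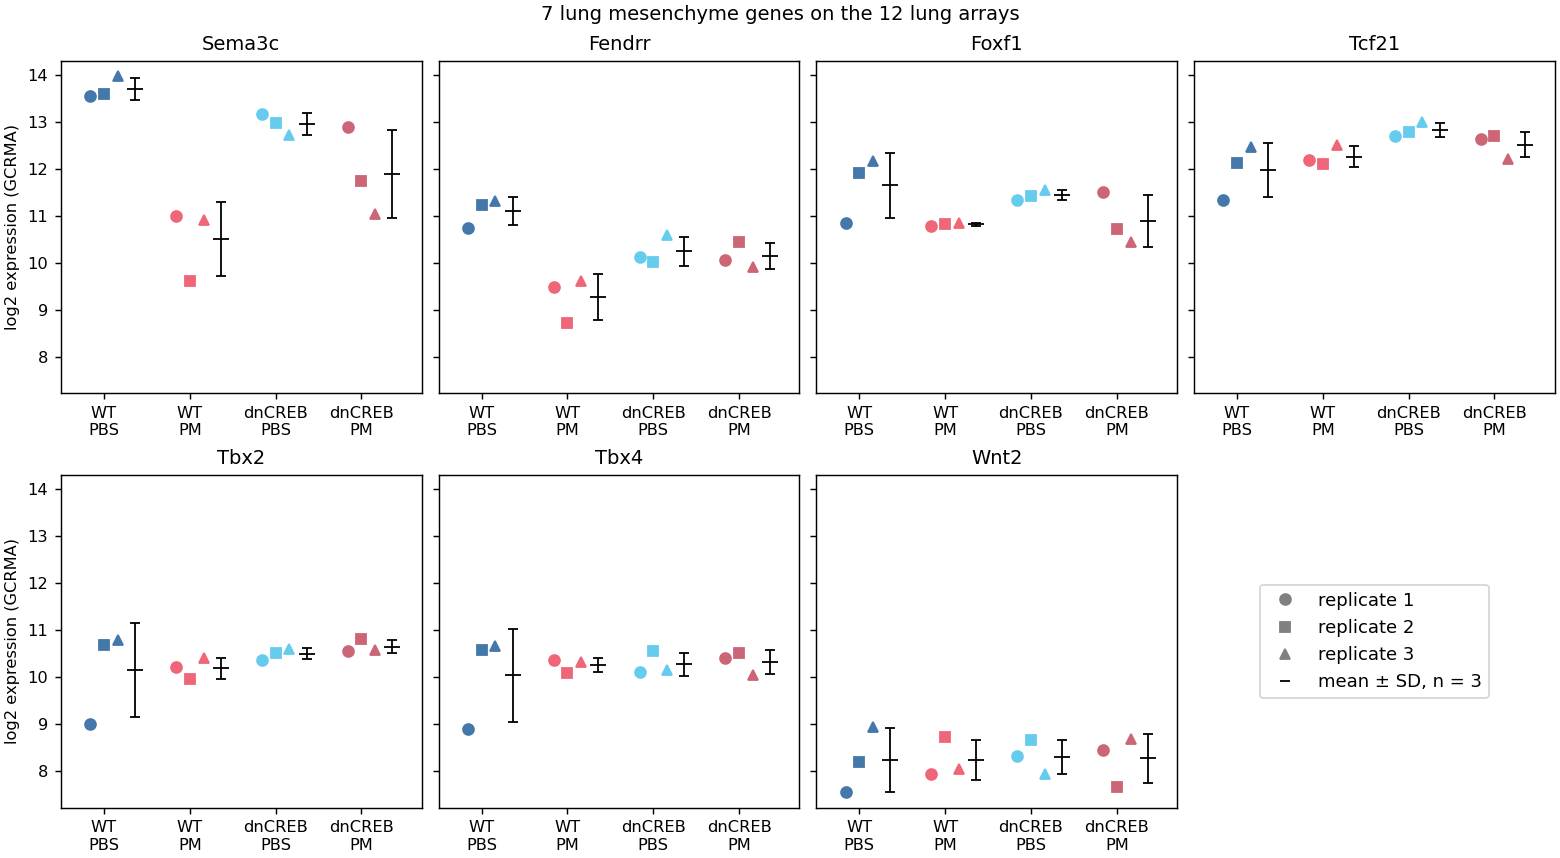
Log2 expression (y axis) of the 7 genes on the 12 lung arrays by group (x axis), with replicate symbols as points and bars for the mean ± SD of 3 arrays. Sema3c and Fendrr are lowest in wild-type PM lung, while wild-type PBS replicate 1 is the lowest lung array for Tbx2 (8.99) and Tbx4 (8.89).

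The second Sema3c probe set, 1420696_at, gave another picture of dnCREB lung. Its values were 9.11, 9.71 and 9.80 in wild-type PBS lung, 6.16, 5.58 and 5.23 in wild-type PM lung, 9.39, 9.20 and 9.07 in dnCREB PBS lung, and 7.74, 6.17 and 5.88 in dnCREB PM lung. Here all PM lungs of both genotypes lay below all PBS lungs, in dnCREB by a gap of 1.33. By their brightest probe sets, 8.25% of genes tested lay lower in dnCREB PM lung without overlap. That share was not counted over dimmer probe sets. In wild type the difference was -3.88, or 14.7-fold, a description as above. In dnCREB lung this probe set fell by 2.62 ± 0.46, or 6.17-fold, and passed the test over all 20249 probe sets (limma adjusted p = 0.0249), where 214 probe sets, or 1.06%, were called lower. The call depended on the dnCREB arrays. Leaving out each dnCREB array in turn gave -3.20 to -2.27 with limma adjusted p of 0.0098 to 0.1347, and only the fit without dnCREB PM replicate 1 kept the call. Leaving out each wild-type array kept it (limma adjusted p of 0.0149 to 0.039), as did quantile normalization (0.0207), centred arrays (0.0262) and the sex chromosome covariate (0.042). With the replicate number as a block the limma adjusted p was 0.0553, and with the skeletal muscle covariate 0.0532. The difference between the genotypes' changes was 1.26 on this probe set.

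Probe sets that are not the brightest of their gene were often lower under PM throughout the lung arrays. Among genes with several probe sets, 207 of 8649 such probe sets were called lower in dnCREB lung and 9 higher, whereas of the 7178 brightest ones 5 were lower and 12 higher. In wild-type lung the same counts were 158 lower and 76 higher against 34 lower and 126 higher. The part of this shift in the Sema3c result was not tested.

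**Figure D2:**
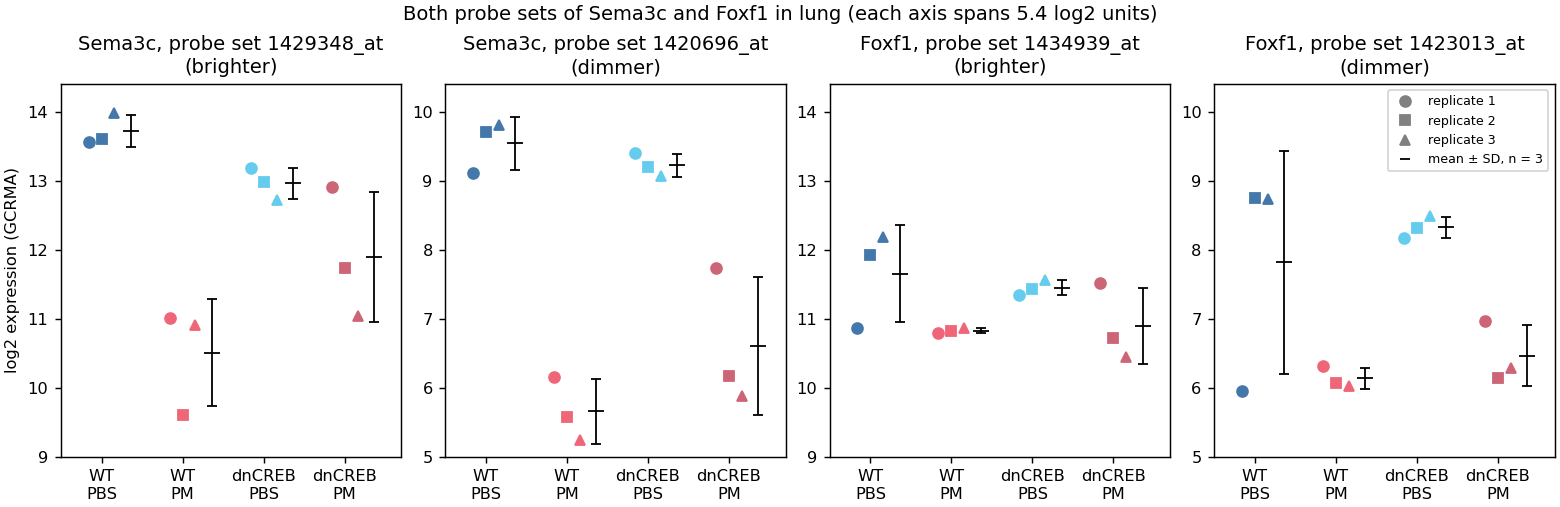
Log2 expression (y axes, each spanning 5.4 log2 units) of both probe sets of Sema3c and of Foxf1 in the 4 lung groups (x axis), with points for arrays and bars for the mean ± SD of 3 arrays. On the dimmer Sema3c probe set the dnCREB PM lungs (5.88 to 7.74) lie below all PBS lungs, whereas on the brighter one dnCREB PM replicate 1 (12.91) lies among the dnCREB PBS lungs.

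Fendrr, the lung-expressed long non-coding RNA, also lay lower in wild-type PM lung, and in dnCREB lung it did not. Its single probe set read 10.75, 11.24 and 11.31 in wild-type PBS lung and 9.48, 8.71 and 9.62 in wild-type PM lung. The groups did not overlap, and replicate 2 was again the lowest. The mean was 11.10 ± 0.30 under PBS and 9.27 ± 0.49 under PM (SD, n = 3), a difference of -1.83 ± 0.27 (SE) or 3.56-fold, which ranks 19 from the lowest of 11600 genes. Leaving out 1 array gave -2.01 to -1.55, leaving out both least correlated arrays -1.72, the skeletal muscle covariate -1.73 and the sex chromosome covariate -2.17. Both covariates carry the limits given for Sema3c. In dnCREB lung Fendrr read 10.13, 10.02 and 10.60 under PBS and 10.06, 10.45 and 9.92 under PM. These groups overlapped, with a difference of -0.10 (95% interval -0.70 to 0.50, limma adjusted p = 0.9509). The difference between the changes in the 2 genotypes was 1.73 ± 0.39, again without a test.

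Foxf1, the forkhead factor beside Fendrr, lay less far apart between the treatments. It read 10.86, 11.92 and 12.18 in wild-type PBS lung and 10.80, 10.82 and 10.86 in wild-type PM lung. The PM arrays lay close together just under the lowest PBS array, replicate 1, which was also low for Tcf21, Tbx2 and Tbx4. The difference was -0.83 ± 0.33, or 1.77-fold lower, and without wild-type PBS replicate 1 it was -1.22. In dnCREB lung Foxf1 read 11.35, 11.43 and 11.56 under PBS and 11.52, 10.71 and 10.45 under PM. Here dnCREB PM replicate 1 lay with the PBS arrays, as it did for Sema3c. The difference of -0.55 had a 95% interval of -1.29 to 0.18 and did not pass (limma adjusted p = 0.6374). Sema3c, Fendrr and Foxf1 are 3 of 7 members whose wild-type PM arrays all lay below the PBS arrays, and 9.09% of all genes tested did so. Because that contrast chose Sema3c and Fendrr, nothing is read from this count.

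The dimmer Foxf1 probe set, 1423013_at, read 5.95, 8.75 and 8.74 in wild-type PBS lung, 6.31, 6.07 and 6.03 in wild-type PM lung, 8.17, 8.31 and 8.48 in dnCREB PBS lung and 6.97, 6.14 and 6.29 in dnCREB PM lung. Apart from wild-type PBS replicate 1, every PBS lung lay above every PM lung. In dnCREB lung the gap between the groups was 1.20, and 8.25% of genes, by their brightest probe sets, lay lower there without overlap. The share among dimmer probe sets, which were more often called lower there, was not counted. The difference of -1.86 did not pass over all probe sets (limma adjusted p = 0.1761). Without wild-type PBS replicate 1, the array that stands apart, the same difference passed (limma adjusted p = 0.0041). That array is no part of the difference, which stayed at -1.86, and enters only through the spread shared by the groups. How many probe sets passed in that fit was not counted, so nothing is read from this call. In wild-type lung the difference was -1.68, and -2.61 without that array.

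The sequences just upstream of the Sema3c and Fendrr start sites are shown because these members fell most with PM in wild-type lung. A further reason is that the study compares a CREB transgene, whose factor binds the cAMP response element. Each is the 250 bases before each start in RefSeq (GRCm38.p6), on the gene's own strand, at chr5:17574566-17574815 (plus strand) for Sema3c and chr8:121083111-121083360 (minus strand) for Fendrr. Capitals mark matches to a motif searched on both strands.
Sema3c: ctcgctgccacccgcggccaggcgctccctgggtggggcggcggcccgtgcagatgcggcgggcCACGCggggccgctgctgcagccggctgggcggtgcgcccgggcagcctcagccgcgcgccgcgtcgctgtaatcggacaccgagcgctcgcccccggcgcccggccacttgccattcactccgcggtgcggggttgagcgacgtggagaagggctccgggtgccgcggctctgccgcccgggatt
Fendrr: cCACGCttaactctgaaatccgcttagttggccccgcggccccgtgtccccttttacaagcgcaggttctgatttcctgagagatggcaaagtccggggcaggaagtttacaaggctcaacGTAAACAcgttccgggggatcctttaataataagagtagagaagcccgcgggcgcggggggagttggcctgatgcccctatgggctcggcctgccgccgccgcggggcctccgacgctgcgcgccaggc
The Sema3c window is 78.4% G or C and the Fendrr window 62.0%, against a median of 52.4% over 32851 promoters. Fendrr holds 1 match to the forkhead motif GTAAACA, which 3.166% of promoters hold. Both windows hold 1 match to GCGTG, the core that the aryl hydrocarbon receptor binds, on the reverse strand as CACGC, and 28.16% of promoters hold it. Neither window holds the full cAMP response element TGACGTCA (1.546% of promoters), the T-box site AGGTGTGA (1.12%) or the TATA box letters TATAAA (12.37%). No motif searched overlapped another in these windows. Windows were at hand for 5 of the 7 members, and Tcf21 held 1 GCGTG, Tbx4 held 2 GCGTG and 1 TATAAA, and Wnt2 held none of these 5 motifs. RefSeq places Fendrr and Foxf1 side by side on chromosome 8, and Tbx2 and Tbx4 on chromosome 11, with 0 genes between the members of each pair.

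The wild-type PM differences of Tcf21, Tbx2, Tbx4 and Wnt2 lay between 0.01 and 0.29 and turned with 1 array. Without wild-type PBS replicate 1 they were -0.036 for Tcf21, -0.54 for Tbx2, -0.36 for Tbx4 and -0.32 for Wnt2, and -0.87 for the dimmer Tbx4 probe set. Tcf21, the fibroblast factor, read 11.34, 12.13 and 12.48 under PBS and 12.19, 12.10 and 12.51 under PM in wild type, and 12.71, 12.80 and 13.00 against 12.64, 12.72 and 12.21 in dnCREB. The PM difference was 0.29 in wild type and -0.32 in dnCREB lung (limma adjusted p = 0.7552). Only wild-type PBS replicate 1 stood off, below every other lung. A second Tcf21 probe set stayed between 3.23 and 4.36 in all lungs, too low to test.

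Tbx2 and Tbx4, the T-box pair, followed each other across arrays. Tbx2 read 8.99, 10.67 and 10.79 in wild-type PBS lung, 10.22, 9.95 and 10.40 in wild-type PM lung, 10.37, 10.52 and 10.60 in dnCREB PBS lung and 10.56, 10.80 and 10.58 in dnCREB PM lung. Tbx4 read 8.89, 10.57 and 10.66, then 10.37, 10.08 and 10.31, then 10.11, 10.55 and 10.16, then 10.41, 10.52 and 10.04 in the same order of groups. Outside wild-type PBS replicate 1, each gene kept within about 1 log2 unit. The PM differences were 0.04 and 0.22 in wild type and 0.15 and 0.05 in dnCREB lung (limma adjusted p = 0.9491 and 0.9835). Their 95% intervals in dnCREB lung were -0.69 to 0.99 for Tbx2 and -0.80 to 0.90 for Tbx4, so these arrays allow differences anywhere within those bounds. On the dimmer Tbx4 probe set, 1426321_at, the dnCREB lungs read 7.84, 8.62 and 7.84 under PBS and 7.14, 6.92 and 7.13 under PM. Those groups did not overlap, and 8.25% of genes, by their brightest probe sets, lay lower there without overlap. As for Foxf1, the share among dimmer probe sets was not counted. The difference of -1.03 did not pass (limma adjusted p = 0.5947). Without wild-type PBS replicate 1 the same difference passed (limma adjusted p = 0.0456). That array enters this comparison only through the shared spread, so nothing is read from this call.

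Wnt2, the mesenchymal Wnt ligand, lay at similar levels in all groups. It read 7.56, 8.19 and 8.92 in wild-type PBS lung, 7.94, 8.72 and 8.05 in wild-type PM lung, 8.31, 8.66 and 7.93 in dnCREB PBS lung and 8.45, 7.66 and 8.67 in dnCREB PM lung. All 4 groups overlapped, and the PM differences were 0.01 in wild type and -0.04 in dnCREB lung (95% interval -0.86 to 0.79, limma adjusted p = 0.9862).

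**Figure D3:**
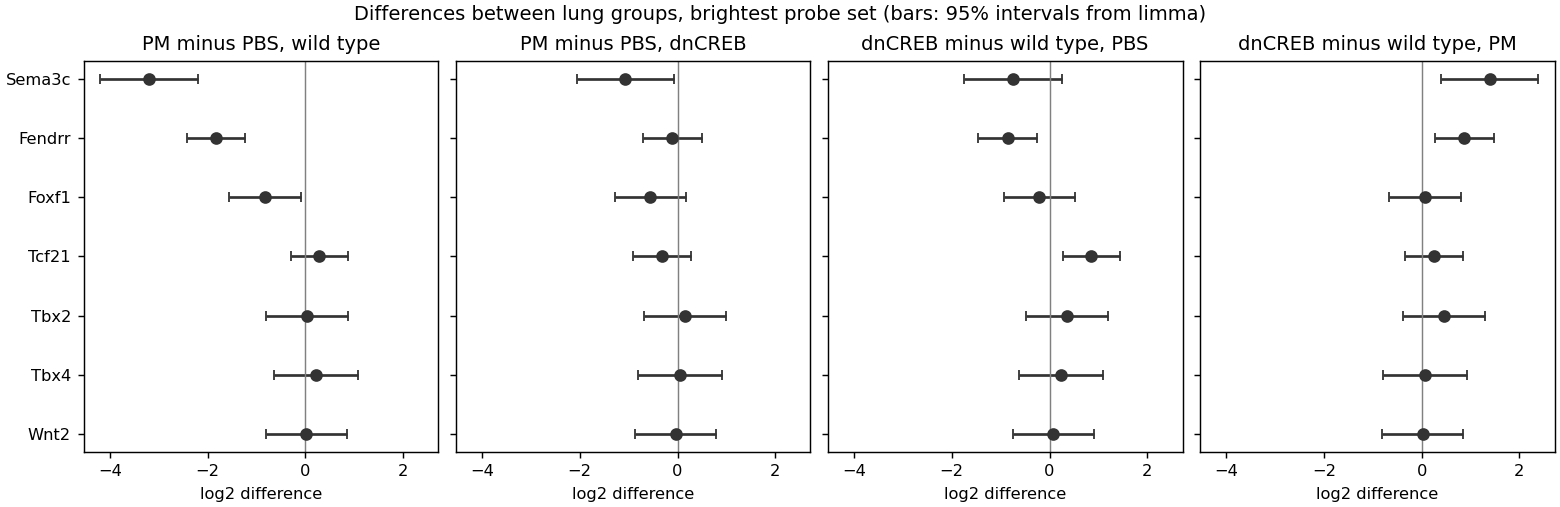
Log2 differences (x axes) of the 7 genes (y axis) for 4 comparisons of lung groups, with points for the difference and bars for its 95% interval from limma. In wild-type lung Sema3c (-3.21) and Fendrr (-1.83) lie farthest below 0, and under PM both lie above 0 in dnCREB against wild type (1.39 and 0.87). Both genes were selected on their wild-type PM difference, which by itself favours these signs.

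The genotypes differed in opposite directions for Sema3c and Fendrr under PBS and under PM. Under PBS the dnCREB lungs lay below all wild-type lungs, with differences of -0.75 for Sema3c and -0.85 for Fendrr. Under PM they lay above all wild-type lungs, by 1.39 for Sema3c and 0.87 for Fendrr. Non-overlap was seen for 7.99% of genes in the lower direction under PBS and for 2.91% in the higher direction under PM. These comparisons use the wild-type arrays that chose both genes, so they are given without a test. Choosing genes that fall with PM in wild type by itself favours this turn of sign, so nothing is read from it. For Sema3c this holds for the brighter probe set, by a gap of 0.0321 under PM. On the second probe set, with differences of -0.32 under PBS and 0.94 under PM, the genotypes overlapped under both treatments. Under PBS, Eif2s3y read 9.24 to 10.19 in the wild-type lungs and 3.17 to 3.18 in the dnCREB lungs. Genotype and this Y-chromosome signal therefore cannot be told apart under PBS.

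None of the other 5 members was called between genotypes in lung, where the limit from Eif2s3y under PBS holds as well. Uty, named next, is on the Y chromosome too. Limma called 3 of 11600 genes under PBS (0.0259%), which were Uty, Tdgf1 and Angpt2, and 0 under PM (0%), where 461 were under 0.05 before adjustment (3.97%). Under PBS, Tcf21 lay above all wild-type arrays in dnCREB by a gap of 0.24, a difference of 0.86 (95% interval 0.27 to 1.45, limma adjusted p = 0.7498), and 5.85% of genes lay higher without overlap. Under PM, Tbx2 lay higher without overlap, by 0.46 (95% interval -0.38 to 1.30, limma adjusted p = 0.901), as did 2.91% of genes. Tbx2 under PBS (0.35) and Tcf21 under PM (0.26) did not pass either (limma adjusted p = 0.8913 and 0.9064). Foxf1, Tbx4 and Wnt2 overlapped between genotypes under both treatments, with differences of -0.21 to 0.23 and limma adjusted p of 0.9191 or more.

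Other genes of the same pathways were read from lists. In the forkhead and Hedgehog list 0 of 11 genes tested were called with PM in wild-type lung. Shh, the Hedgehog ligand of the epithelium, differed by -1.13 ± 0.26 (limma adjusted p = 0.0506), and Hhip, a Hedgehog-binding inhibitor, by -0.94 ± 0.24 (limma adjusted p = 0.0589). In dnCREB lung Hhip differed by -0.85 (limma adjusted p = 0.31). The median of the list was -0.15 in wild-type and -0.12 in dnCREB lung, against 0.11 and 0.07 over all genes tested.

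The list of semaphorins, plexins and neuropilins had 16 genes tested, Sema3c among them, which was selected on this comparison and is not counted. Of the rest, 1 was called with PM in wild-type lung and was lower, Sema3a, another class 3 guidance ligand (-1.11 ± 0.24, limma adjusted p = 0.0457). Over all genes, 0.431% were called lower and 1.96% higher. The receptor Nrp2 differed by 0.89 and Sema3b by 1.12, and neither passed (limma adjusted p = 0.0998 and 0.1225). The median of that list, Sema3c included, was 0.07, near that of all genes.

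Of the T-box genes, 1 of 7 was called with PM in wild-type lung. This was Tbx21, the factor of type 1 T cells and natural killer cells, which rose by 2.46 ± 0.39 (limma adjusted p = 0.0199) and is no mesenchyme gene. In dnCREB lung it differed by 1.86 (limma adjusted p = 0.2226). The Wnt list had 0 of 20 called, with Rspo1, a Wnt enhancer, at -0.67 and the receptor Fzd2 at 0.62. The list of FGF, BMP and retinoid genes had 0 of 19 called in wild-type lung. Fgf7, a mesenchymal growth factor for epithelium, differed by -0.65 (limma adjusted p = 0.0595), and Rarb, a retinoic acid receptor, by -1.07 (limma adjusted p = 0.0788). In dnCREB lung no gene of any of these 5 lists was called, and Bmp5 (-0.74) and Rarb (-0.92) had the smallest p of the FGF, BMP and retinoid list (limma adjusted p = 0.3279 and 0.359).

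Markers of other cells in the lung moved as follows beside Sema3c and Fendrr. All 21 lung fibroblast markers were tested and 0 were called with PM in either genotype. Their mean was 10.60 to 11.00 in wild-type PBS, 11.06 to 11.29 in wild-type PM, 11.12 to 11.28 in dnCREB PBS and 11.25 to 11.39 in dnCREB PM lung. Of 10 smooth muscle markers 1 was called higher in wild-type lung, the actin filament protein Lmod1 (0.90, limma adjusted p = 0.0425), and of 9 pericyte markers 0.

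Endothelial markers, 15 of 15 tested and 0 called, averaged 10.19, 11.62 and 11.66 in wild-type PBS lung and 11.40, 11.17 and 11.24 in wild-type PM lung. In dnCREB lung they averaged 11.42, 11.75 and 11.53 under PBS and 11.71, 11.24 and 10.82 under PM. The order of the arrays was that of Sema3c in each group except dnCREB PBS lung, where Sema3c read 13.18, 12.98 and 12.72. In wild-type PBS lung Sema3c read 13.56, 13.61 and 13.98, a narrower spread than that of the markers. Macrophage markers, 10 of 10 tested, averaged 8.29, 9.06 and 9.48 in wild-type PBS lung and 9.80, 10.74 and 10.33 in wild-type PM lung, against 8.99 to 9.18 and 9.44 to 9.50 in dnCREB lung. They were highest in wild-type PM replicate 2, the array lowest for Sema3c and Fendrr, and 1 of the 10, the scavenger receptor Marco, was called higher in wild type (2.76, limma adjusted p = 0.0225). In dnCREB PM lung the macrophage mean was 9.46, 9.44 and 9.50, where Sema3c read 12.91, 11.74 and 11.04. The part of the endothelial and macrophage signals in the Sema3c and Fendrr values was not tested. That of the skeletal muscle signal was not tested beyond the covariate fits above.

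**Figure D4:**
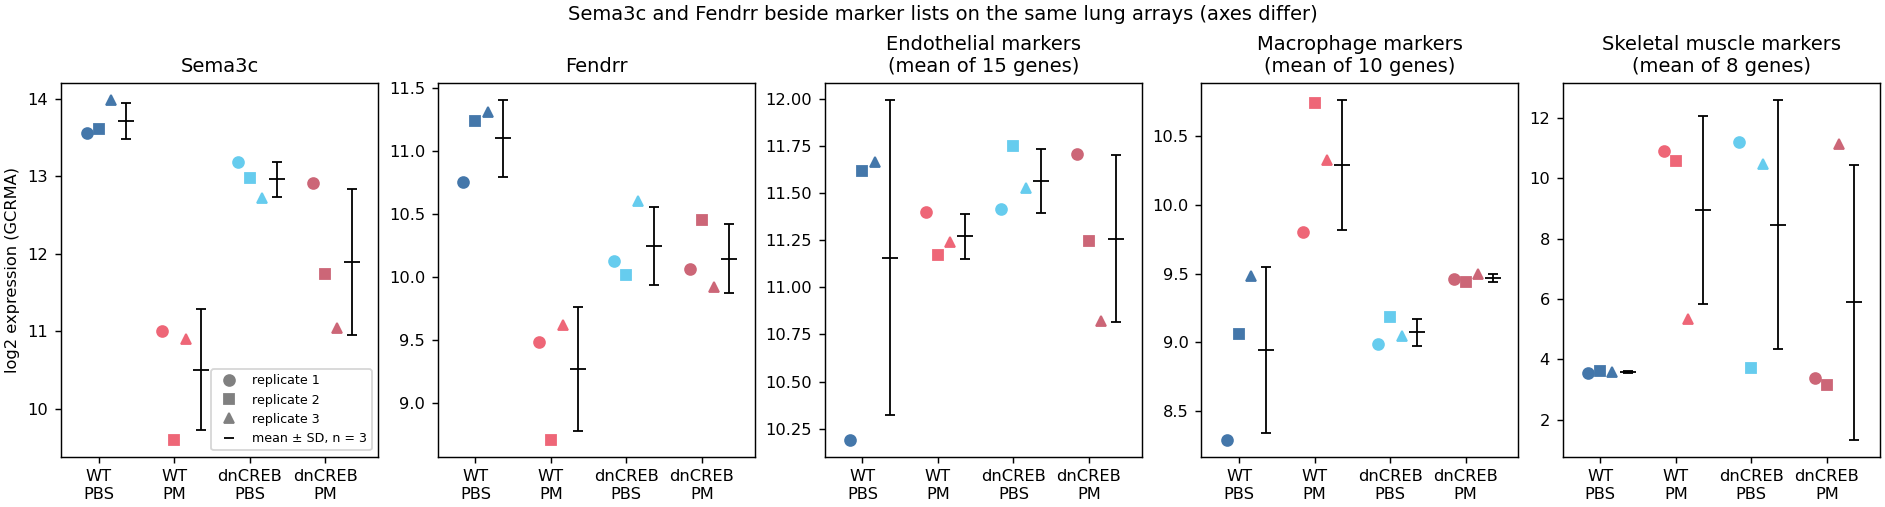
Log2 expression (y axes, which differ) of Sema3c and Fendrr and mean log2 expression of the endothelial (15 genes), macrophage (10) and skeletal muscle (8) markers on the same 12 lung arrays by group (x axis), with points for arrays and bars for the mean ± SD of 3 arrays. Skeletal muscle signal is high in wild-type PM replicates 1 and 2 (10.92 and 10.59) and lower in replicate 3 (5.34). All 3 lie above the wild-type PBS lungs (3.54 to 3.61). Sema3c reads 11.01, 9.61 and 10.90 on these PM arrays.

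The genes most like Sema3c over the 12 lung arrays, by Pearson correlation, were Tmeff1 (0.951), Kmt5b (0.948), Palmd (0.947), Cdk14 (0.945) and Cavin2 (0.939). Those most like Fendrr were Kank3 (0.957), Fam193b (0.957), Purg (0.942), Ralgapa1 (0.927) and Abhd18 (0.918). As a description of the pattern, Kank3 read 10.38, 10.28 and 10.21 in wild-type PBS lung, 9.08, 8.24 and 9.01 in wild-type PM lung, 9.56, 9.58 and 9.81 in dnCREB PBS lung and 9.65, 9.67 and 9.45 in dnCREB PM lung. Cavin2, a caveolar coat protein, stood at 13.51 to 13.63 in wild-type PBS lung and at 11.93 to 12.99 in wild-type PM lung. Its array order in dnCREB PM lung was that of Sema3c. Because it was picked by correlation over these same arrays, nothing is read from that order. Fendrr had a correlation of 0.874 with Sema3c, which put it at order 41 among the genes most like Sema3c. Foxf1 was at order 792 for Fendrr (0.653), although the genes are neighbours, and Tbx4 at order 22 for Tbx2 (0.907). With Tcf21, Tbx2, Tbx4 and Wnt2, Sema3c correlated at only -0.042 to 0.061 and Fendrr at -0.157 to 0.203. These correlations are over 12 arrays that share group differences and the arrays that stand apart, and they carry no p.

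In the left ventricle only Sema3c and Tcf21, 2 of the 7, passed the filter of 3 arrays above a log2 level of 4. Fendrr, Foxf1, Tbx2, Tbx4 and Wnt2 lay between 2.38 and 2.92 on all 12 hearts, and the second Sema3c probe set between 2.63 and 3.82. Levels are not compared between the tissues, whose arrays appear to have been normalized separately. Neither gene was called with PM in heart. Sema3c differed by 0.13 in wild-type and -0.36 in dnCREB heart and Tcf21 by 0.12 and 0.06 (limma adjusted p of 0.9784 or more). Limma called 1 gene in wild-type heart (0.01%), the water channel Aqp4, and 0 in dnCREB heart (0%), where 490 were under 0.05 before adjustment (4.92%).

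Both genes were higher in dnCREB than in wild-type hearts. Tcf21 read 9.53, 10.05 and 10.11 in wild-type hearts under PBS, 10.26, 9.82 and 9.96 in those under PM, 11.02, 11.51 and 11.21 in dnCREB PBS hearts and 10.67, 11.36 and 11.87 in dnCREB PM hearts. Every dnCREB heart lay above every wild-type heart, and 25.8% of genes lay higher without overlap under PBS and 20.2% under PM. The difference was 1.35 ± 0.28 under PBS, or 2.55-fold (limma adjusted p = 0.0089), and 1.29 ± 0.28 under PM (limma adjusted p = 0.0109), and it passed without each array in turn. Sema3c read 8.71, 9.50 and 8.67 in wild-type hearts under PBS, 9.49, 9.07 and 8.72 in those under PM, 9.94, 10.22 and 10.54 in dnCREB PBS hearts and 9.49, 9.58 and 10.56 in dnCREB PM hearts. Under PBS the genotypes did not overlap, and under PM the lowest dnCREB heart reached the highest wild-type heart. The difference was 1.27 ± 0.33 under PBS, or 2.42-fold (limma adjusted p = 0.024), and 0.78 under PM (limma adjusted p = 0.125).

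These heart results are read against a broad shift. Under PBS 13.2% of genes tested were called higher and under PM 11.4%, so 2 of 2 and 1 of 2 members stand beside a high background. The Sema3c call under PBS was lost when no filter was used (limma adjusted p = 0.0586). It was lost as well without wild-type PBS replicate 1 or 3 or dnCREB PBS replicate 2 or 3, over a range of limma adjusted p of 0.0188 to 0.0936. Xist was high in all 6 wild-type hearts and Eif2s3y in 5 of the 6 dnCREB hearts. The exception, dnCREB PM replicate 3 with high Xist, had the highest Sema3c and the highest Tcf21 of all 12 hearts. Without that array the differences under PM were 0.44 for Sema3c and 1.01 for Tcf21 (limma adjusted p = 0.3617 and 0.0338). Under PBS every wild-type heart was high in Xist and every dnCREB heart in Eif2s3y, so genotype and sex cannot be told apart there.

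Fibroblast markers moved with them in heart. Of 18 tested, 9 were called higher and 1 lower in dnCREB than in wild-type PBS hearts. Over all genes, 13.2% were called higher there and 5.6% lower, which stands beside every list below. Mfap4, a microfibril protein, rose by 6.02, Pi16, a peptidase inhibitor of adventitial fibroblasts, by 2.28 and the matrix proteoglycan Dcn by 0.68 (limma adjusted p = 0.000245, 0.0022 and 0.0015), while Ces1d, a lipid hydrolase, fell by 6.35 (limma adjusted p = 0.0011). The list's mean was 9.65 to 9.93 in wild-type PBS and 10.61 to 10.76 in dnCREB PBS hearts, and its part in the Sema3c and Tcf21 values was not tested. Of the semaphorin list 4 of 15 were called higher, with Sema3d at 2.64 (limma adjusted p = 0.0137) and Sema3b at 1.66 (limma adjusted p = 0.004) beside Sema3c and the receptor Plxnb2 at 1.07 (limma adjusted p = 0.0077). Of the FGF, BMP and retinoid list 6 of 17 were called higher, among them the retinoid enzyme Aldh1a1 (2.81) and the FGF target Etv5 (2.89). Of the Wnt list 2 of 9 were called higher, the receptors Fzd1 (1.59) and Fzd7 (1.37). Under PM, 11.4% of all genes were called higher and 9.13% lower. There the fibroblast list had 7 higher and 1 lower, and the semaphorin list 3 higher and 2 lower. The FGF, BMP and retinoid list had 4 higher and 0 lower, and the Wnt list 2 higher and 1 lower.

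**Figure D5:**
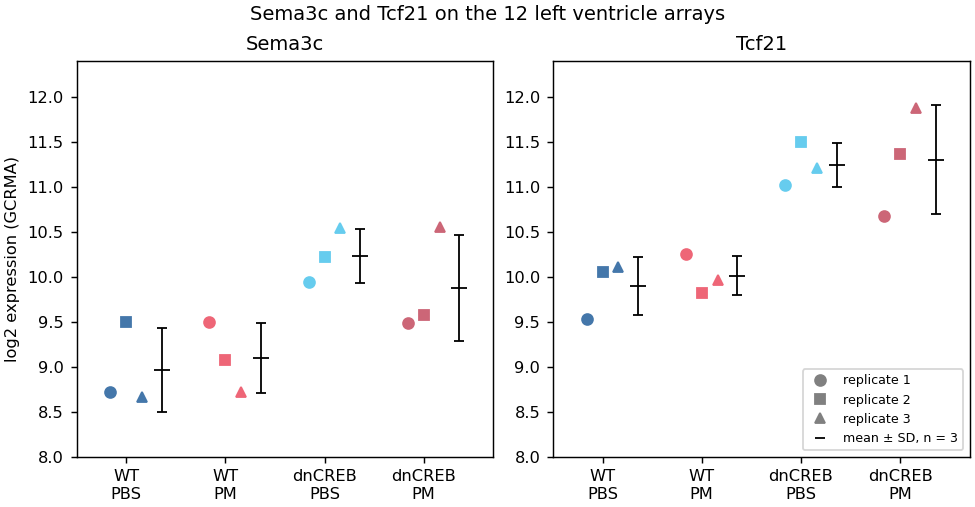
Log2 expression (y axes) of Sema3c and Tcf21 on the 12 left ventricle arrays by group (x axis), with points for arrays and bars for the mean ± SD of 3 arrays. All 6 dnCREB hearts lie above all 6 wild-type hearts for Tcf21, while for Sema3c dnCREB PM replicates 1 and 2 (9.49 and 9.58) lie at the top of the wild-type range.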

How the data were processed

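RNA of 12 lungs and 12 left ventricles was measured, 3 arrays in each of 8 groups. The authors deposited log2 values summarised with GCRMA (version not given in the sources used here), per the submitters' processing notes. Medians per lung array were 4.09 to 4.19, and per heart array 3.25 to 3.37. Of 45037 probe sets, 34945 named 1 gene in the platform annotation, 932 several and 9160 none, and the last 2 kinds were left out. Testing needed 3 arrays of the tissue above 4, leaving 11600 genes in lung and 9962 in heart. limma 3.58.1 in R 4.3.3 fitted 4 group means per tissue, with Benjamini-Hochberg adjustment over all genes (or all probe sets) at 0.05, and the fit was tested on simulated data. A gene is called when it passes this adjusted threshold. The number of arrays limits precision, and each p-value weighs a group difference against the spread between arrays within the 4 groups.

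Named genes are the 7 members with each probe set that names them alone, up to 4 genes of smallest p per described list, the 5 genes most correlated with Sema3c and with Fendrr over the lung arrays, and sex-chromosome genes as a label check. Cpxm2, Uty, Tdgf1, Angpt2 and Aqp4 were named after their values were seen. The members, lists and tests were chosen with earlier results of these data known. Same-numbered samples did not deviate together throughout (correlations between -0.33 and 0.33), so numbers were not treated as pairs. Other settings were no filter, a filter at 6, quantile normalization, centred arrays, a replicate block, a sex chromosome covariate (Xist minus Eif2s3y), a skeletal muscle covariate in lung, the other probe sets and each array left out. Leaving out both least correlated lung arrays was added after seeing the data. Tables and plots used Python 3.11.15, pandas 2.3.3 and matplotlib 3.10.9.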

Additional observations from a re-analysis of the deposited data

Results flagged for a closer look

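For the brighter Sema3c probe set in lung, the genotype difference turned sign between treatments: all dnCREB arrays lay below all wild-type arrays under PBS and above them under PM. Among all genes tested in lung, 7.99% lay lower without overlap under PBS and 2.91% higher under PM. For Sema3c the gap under PM was 0.0321, and on the second probe set the genotypes overlapped under both treatments. The difference under PM minus that under PBS was 2.14, and it was not tested because wild-type lung chose the gene. That choice by itself favours such a turn of sign. For Fendrr the same held, with a value of 1.73, and it was not tested either. Under PBS, the brighter Sema3c probe set was lower in every dnCREB lung than in every wild-type lung and higher in every dnCREB heart than in every wild-type heart. Over all genes tested, 7.99% lay lower without overlap in dnCREB lung and 25.8% higher in dnCREB heart. For Sema3c the genotype difference in heart minus that in lung was 2.03, which was not tested. Under PBS, Eif2s3y was high in every wild-type lung and low in every dnCREB lung, and the reverse held in heart. Genotype and this Y-chromosome signal cannot be told apart in either tissue.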

How the results depend on the processing

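Sema3c and Fendrr stayed lower with PM in wild-type lung under all settings run, including each array left out, and the 0 calls among members in dnCREB lung held for the brightest probe sets. The number of genes called moved more than the members did. PM in wild-type lung gave 277 genes, and gave 85 with no filter, 1264 with the sex chromosome covariate, 9 with the skeletal muscle covariate, 27 without both least correlated arrays and 34 to 622 with 1 array left out, namely 147 and 34 without wild-type PBS replicates 1 and 2, and 622 and 50 without wild-type PM replicates 1 and 2. PM in dnCREB lung gave 1 gene, and 0 with no filter, with the filter at 6, with the replicate block and without both least correlated arrays, 3 with the muscle covariate and 0 to 1 by leave-one-out. The genotypes under PBS in lung gave 3 genes, and 1 with the filter at 6, with either covariate and without both arrays, and 0 to 5 by leave-one-out. Their interaction gave 1, and 0 to 3 by leave-one-out. In heart, PM in wild type gave 1 gene, 0 with no filter and with the replicate block, and 0 to 3 by leave-one-out. PM in dnCREB heart gave 0, 3 with the sex covariate and 0 to 5 by leave-one-out, and the interaction 0, 3 and 0 to 3. The genotypes in heart gave 1869 genes under PBS, 403 with the sex covariate and 1091 to 1678 by leave-one-out, and 2042 under PM, 1025 with the sex covariate. The causes were not tested.

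Small differences turned sign. In dnCREB lung under PM, Tbx4 was at -1.03 on its other probe set, -0.11 with the sex and -0.0787 with the muscle covariate, and Wnt2 at 0.0648 and 0.0056. Leave-one-out gave -0.26 to 0.0729 for Fendrr, -0.049 to 0.19 for Tbx4 and -0.24 to 0.26 for Wnt2. Between genotypes under PBS in lung, Foxf1 was at 0.51 on its other probe set, Tbx2 at -0.23, Tbx4 at -0.34 and Wnt2 at -0.26 without both arrays, Tbx4 at -0.0427 with the sex covariate and Wnt2 at -0.0031 with the muscle covariate. Leave-one-out gave -0.60 to 0.0539 for Foxf1, -0.23 to 0.67 for Tbx2, -0.34 to 0.54 for Tbx4 and -0.26 to 0.43 for Wnt2. Under PM, Foxf1 was at -0.0391 with the muscle covariate and Tbx4 at -0.016 without both arrays, -0.0716 on its other probe set, -0.0566 with the sex and -0.0708 with the muscle covariate. Leave-one-out gave -0.25 to 0.29 for Foxf1, -0.0298 to 0.21 for Tbx4 and -0.18 to 0.33 for Wnt2. In heart, Tcf21 was at -0.25 with the sex covariate under PM in dnCREB, and its interaction at 0.025 after quantile normalization. Leave-one-out gave -0.0655 to 0.40 for Sema3c and -0.0674 to 0.22 for Tcf21 under PM in wild-type heart, and -0.23 to 0.37 for Tcf21 under PM in dnCREB heart and -0.34 to 0.26 for its interaction. Sema3c in heart under PM passed with the sex covariate (1.43, limma adjusted p = 0.0354), a covariate that only dnCREB PM replicate 3 separates from genotype in heart. That result apart, the differences in this paragraph had limma adjusted p above 0.05. With the replicate block no call of a member changed on the brightest probe sets.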
